A study of Mus musculus with 12 samples.

Results

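The 38 genes described here encode enzymes of sphingolipid metabolism and their direct regulators, from the first step of ceramide synthesis to the galactolipids of myelin and their breakdown. The rule is a list of symbols and uses no measured value, although the list was drawn up with earlier results of these data known, and each symbol was matched to a mouse Ensembl identifier of the deposited count table, where all 38 were found among 25700 identifiers. By role, 16 belong to de novo ceramide synthesis, 3 to galactolipid synthesis, 5 to sphingomyelin, 4 to glucosylceramide and gangliosides, and 10 to breakdown and the sphingosine 1-phosphate (S1P) branch. A filter on low counts left 37 of them among 18597 tested genes, and Sptssb, a small subunit of serine palmitoyltransferase with 0 to 4 counts per library, was not tested.

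Schwann cells (SCs), the glia that ensheathe axons of peripheral nerves, were sorted by FACS from the sciatic nerve at postnatal day 5 (P5), a stage of active myelination. All 3 groups came from mice of 1 kind, P0Cre:ReYFP with βAct-DsRed, in which Cre, driven by a promoter of the SC lineage, switches on eYFP and a beta actin promoter drives dsRed in every cell, so no group lacks these transgenes and none was otherwise treated. The allSC gate took all eYFP-positive SCs, the mSC gate those of high side scatter, assumed to be myelinating, and the nmSC gate those of low side scatter, assumed to be not myelinating, which makes the 2 narrower gates enriched and not pure fractions. Each gate had 4 libraries, each from 1 mouse, of both sexes, and the allSC gate contains cells of both other gates, so it is not independent of them.

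Sphingolipids are built on ceramide, a sphingoid base joined to a fatty acid, which is made at the endoplasmic reticulum from serine and palmitoyl-CoA. Ceramide is turned into sphingomyelin, into glucosylceramide and gangliosides, or into galactosylceramide and its sulfated form sulfatide, which are characteristic lipids of myelin and there carry many very long and 2-hydroxylated acyl chains. Lysosomal enzymes take these lipids apart again, and inherited loss of some of them causes leukodystrophies such as Krabbe disease and metachromatic leukodystrophy.

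The libraries held 8180927 to 16918122 counted reads, so that 3 counts corresponded to 0.177 to 0.367 CPM (counts relative to library size) before TMM scaling. The 50 genes with the most counts took 26.9% to 31.6% of the counts in mSC and 17.9% to 18.9% in nmSC, and the TMM scaling factors of edgeR were 0.744 to 0.871 in mSC and 1.16 to 1.27 in nmSC. Of the markers that check the labels, 7 of 7 genes of myelinating SCs rose in mSC against nmSC (6 under each of 4 scalings), while 5 of 5 of immature SCs and 5 of 5 of proliferation fell. Sox10, a transcription factor of the SC lineage, was at 267 CPM in mSC, 267 in allSC and 266 in nmSC. The mSC library of subject 4 stood apart from the other mSC libraries, with the lowest TMM factor (0.744) and the largest share in the top 50 genes. Here "level" is always TMM-normalized CPM unless said otherwise, fold changes are log2 values of the fitted counts with their standard error (SE), and adjusted p-values come from quasi-likelihood tests in edgeR, adjusted by Benjamini-Hochberg over all tested genes and called at 0.05.

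Between mSC and nmSC, 23 of the 37 tested genes were higher in mSC, 3 were lower and 11 did not pass the test. Over all tested genes, 20.4% were higher and 20.1% lower, together 40.5%. The 4 mSC and 4 nmSC libraries did not overlap for 20 of the 37 genes, 18 of them higher in mSC (16.8% of all tested genes) and 2 lower (17.4%). The median log2 fold change of the 37 genes was 0.58, and that of all tested genes was -0.16. This all-gene median moved to -0.10 with the size factors of DESeq2, to -0.53 with library size less its top 50 genes and to -0.73 with library size only. The direction of the smaller changes therefore depends on the scaling. The distance of each gene from that median moved by at most 0.03. This small range was bound to occur, since a scaling shifts all genes of a library alike, and it favours no scaling. Called under each of these 4 scalings were 12 genes as higher (7.79% of all tested genes) and 3 as lower (17.7% of all tested genes), and these 15 carry the description that follows.

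**Figure D1:**
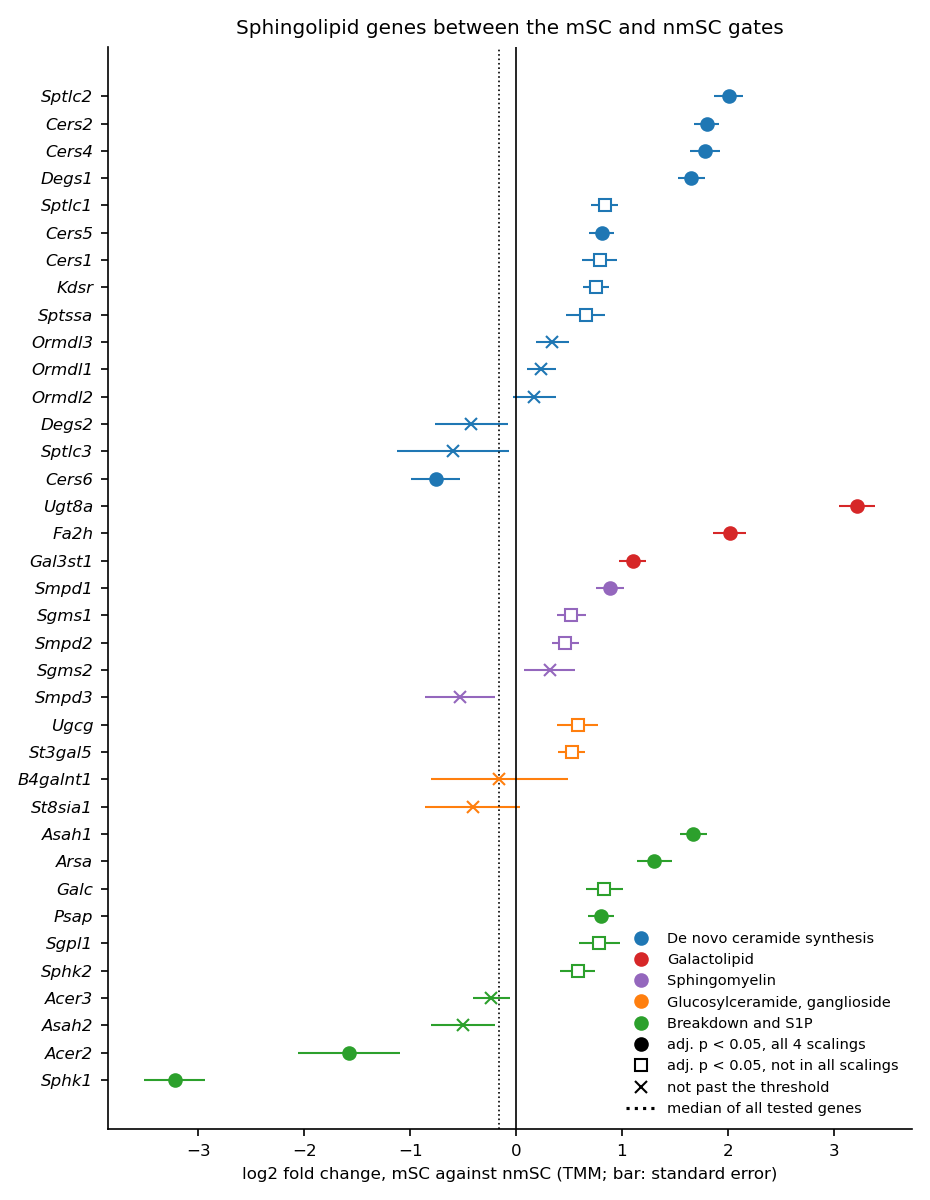
Log2 fold change between the mSC and nmSC gates (x axis) of the 37 tested genes (y axis), grouped and coloured by branch, with bars for the standard error and 4 libraries per gate. Ugt8a lies farthest to the right at 3.22 and Sphk1 farthest to the left at -3.23; filled circles are the 15 genes called under all 4 scalings, and the dotted line is the median of all tested genes (-0.16).

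**Figure D2:**
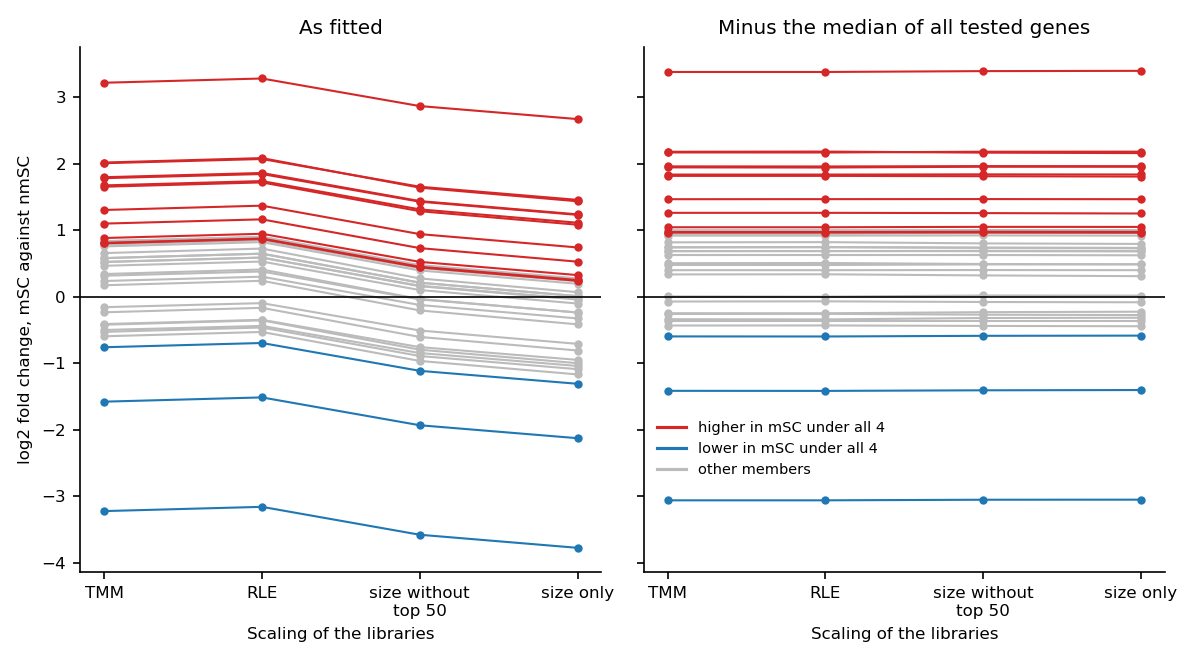
Log2 fold change between mSC and nmSC (y axis) of the 37 genes under 4 scalings of the libraries (x axis), as fitted (left) and after subtraction of the median of all tested genes (right), with 1 line per gene. All genes shift together on the left and stay level on the right, since a scaling moves all genes of a library alike. The 12 genes in red and 3 in blue were called under all 4 scalings.

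Galactolipid synthesis was the branch in which every gene, 3 of 3, rose under TMM and under the other 3 scalings. Among all tested genes, 20.4% were higher under TMM and 7.79% under all 4 scalings. Ugt8a (ENSMUSG00000032854, chr3:125865271-125938619 of GRCm38, minus strand) encodes the ceramide galactosyltransferase that makes galactosylceramide. Its levels in mSC were 5835, 5802, 5367 and 3601 CPM in subjects 1 to 4, the numbers that the labels give the libraries. In allSC they were 3010, 2718, 2800 and 2978 CPM, and in nmSC 489.9, 499.9, 487 and 733.2 CPM. The lowest mSC library, that of subject 4, was still above every allSC library, and the highest nmSC library, also of subject 4, was below all of these. Ugt8a was thus 9.32-fold higher in mSC than in nmSC (log2 3.22, SE 0.17, adjusted p = 2.71e-11), and the log2 value was 3.36 without mSC replicate 4.

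Fa2h (chr8:111345135-111393824, minus strand) encodes the fatty acid 2-hydroxylase that supplies the hydroxylated acyl chains of myelin galactolipids. The mSC libraries had 503.7, 760.3, 756.3 and 861.5 CPM, the allSC libraries 430.9, 390.5, 460.2 and 527 CPM, and the nmSC libraries 207.6, 166.2, 173.5 and 163.3 CPM. Every mSC library exceeded every nmSC library, but mSC replicate 1, the lowest, fell within the range of allSC. The change between mSC and nmSC was 4.05-fold (log2 2.02, SE 0.16, adjusted p = 3.82e-09). Gal3st1 (chr11:3983636-3999326, plus strand) encodes the sulfotransferase that converts galactosylceramide to sulfatide. It reached 243.4, 281, 250.7 and 344.1 CPM in mSC, 161.7, 186.3, 182.9 and 183.8 CPM in allSC and 120.4, 122.9, 147.5 and 130.9 CPM in nmSC. The 3 gates did not overlap for this gene, and its change of 2.14-fold (log2 1.10, SE 0.13, adjusted p = 1.1e-06) was the smallest of the branch.

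**Figure D3:**
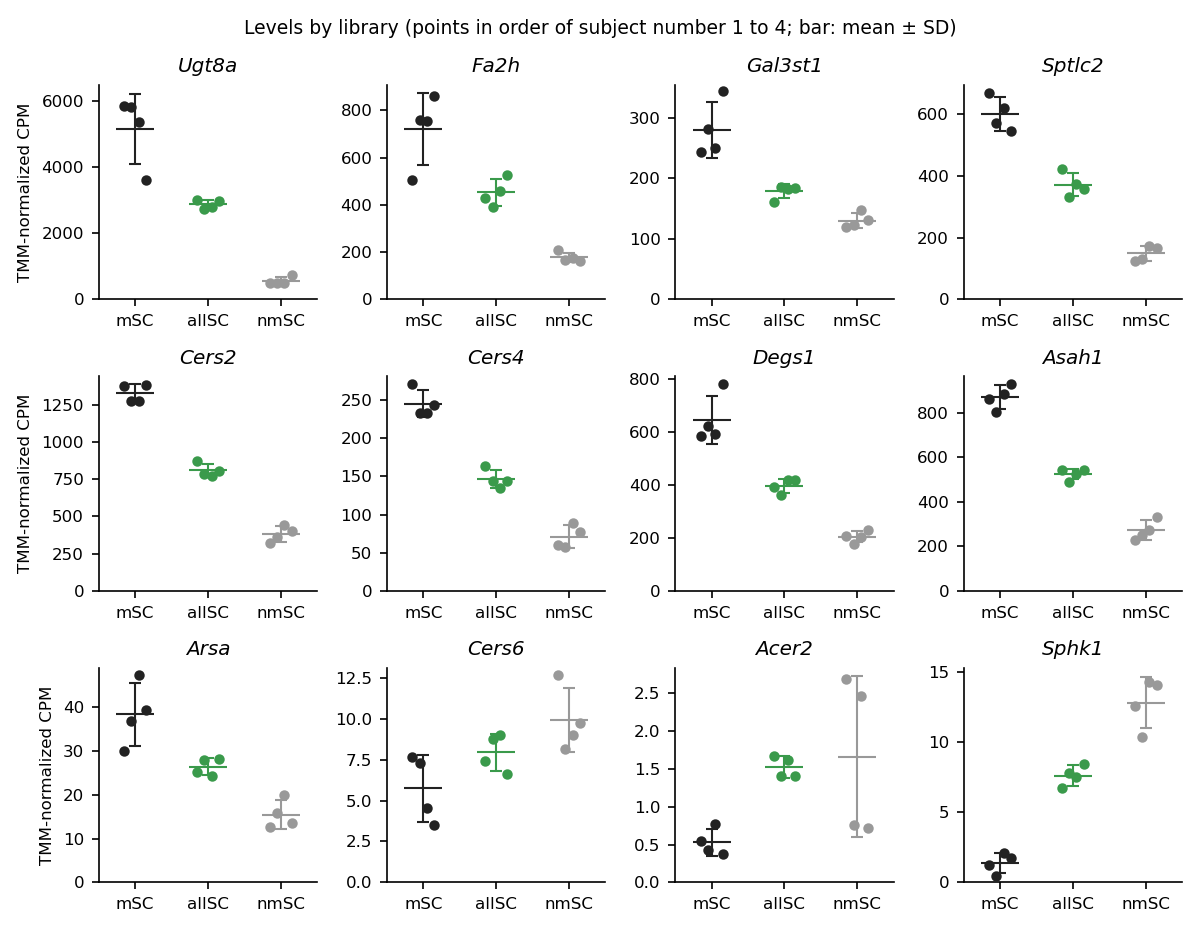
Level in TMM-normalized CPM (y axes, each from 0) of 12 genes, 11 of them called with at least 1 log2 unit between mSC and nmSC, and Cers6, in the mSC, allSC and nmSC gates (x axes), with 1 point per library in order of subject number and bars for the mean ± SD (n = 4). In 9 panels the mSC means lie highest, and in those of Cers6, Acer2 and Sphk1 the mSC means lie lowest.

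In de novo synthesis 9 of 15 tested genes rose in mSC, 1 fell and 5 did not pass the test. The shares over all tested genes were 20.4% higher and 20.1% lower. Under all 4 scalings 5 genes of the branch were higher and 1 was lower, against 7.79% and 17.7% of all tested genes. Sptlc2 (chr12:87305058-87388355, minus strand), a large subunit of serine palmitoyltransferase, which carries out the first and rate-limiting step, had 669, 570, 618.6 and 545.9 CPM in mSC. Its allSC levels were 422.3, 332.9, 373.8 and 359.1 CPM and its nmSC levels 123.9, 131.7, 173 and 168.1 CPM. The 3 gates were separate, and the change between mSC and nmSC was 4.03-fold (log2 2.01, SE 0.14, adjusted p = 5.79e-10). The other subunits moved less. Sptlc1, the obligate partner of Sptlc2, rose by 0.84 (SE 0.13, adjusted p = 3.65e-05) and the small activating subunit Sptssa by 0.66 (SE 0.18, adjusted p = 0.00776), both on the log2 scale, though neither was called with library size only (adjusted p = 0.0569 and 0.73). Sptssa was also not called with library size less its top 50 genes (0.276, adjusted p = 0.193). Sptlc3, an alternative large subunit, had 0.388 to 1.25 CPM in mSC and 0.448 to 1.25 CPM in nmSC, and did not pass the test (log2 -0.60, SE 0.53, adjusted p = 0.376).

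Downstream of this step, Kdsr, the reductase of the second step, had a log2 fold change of 0.76 (SE 0.12, adjusted p = 6.98e-05), which was not called with library size only (0.20, adjusted p = 0.115). Degs1 (chr1:182275772-182282804, minus strand), the desaturase that introduces the double bond of ceramide, had 585.8, 621.7, 592.4 and 781.5 CPM in mSC, 391.5, 361, 418.5 and 417.2 CPM in allSC and 208.5, 176.6, 204.8 and 228.9 CPM in nmSC. The gates did not overlap, and Degs1 was 3.15-fold higher in mSC than in nmSC (log2 1.66, SE 0.13, adjusted p = 3.22e-09). Its paralogue Degs2, which also hydroxylates the sphingoid base, was at 1.55 to 2.74 CPM in mSC and 1.38 to 4.70 CPM in nmSC and was not called (log2 -0.42, SE 0.35, adjusted p = 0.334), though it was called as lower with library size only (adjusted p = 0.0212). Exons of Degs2 overlap those of Evl, and the library protocol does not mark strand, so reads of the 2 genes cannot be told apart there.

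The ceramide synthases, which join the acyl chain to the sphingoid base and differ in the chain lengths they prefer, moved in both directions. Cers2 (chr3:95314791-95323599, plus strand), the enzyme of very long chains, had 1377, 1276, 1274 and 1383 CPM in mSC, 873.5, 783, 773 and 801.3 CPM in allSC and 322, 358.7, 439.9 and 404.3 CPM in nmSC. Cers4 (chr8:4493026-4531680, plus strand), which makes long to very long chains, had 271, 233.6, 233.5 and 243.6 CPM in mSC, 163.3, 144.4, 135 and 143.8 CPM in allSC and 59.7, 58.01, 89.43 and 77.58 CPM in nmSC. Both genes had separate ranges in the 3 gates, and their changes between mSC and nmSC were close to each other, at log2 1.80 (SE 0.12, adjusted p = 4.24e-10) and 1.78 (SE 0.14, adjusted p = 5.64e-09). Exons of both genes also overlap those of other annotated genes, Setdb1 among them for Cers2.

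Cers5 and Cers6, which prefer palmitoyl chains, went opposite ways. Cers5 had 236.7, 250.1, 229.7 and 252 CPM in mSC, 197.2, 180.4, 179.7 and 180 CPM in allSC and 118.4, 126.4, 147.4 and 159.6 CPM in nmSC, and rose without overlap (log2 0.81, SE 0.12, adjusted p = 1.63e-05). Cers6 (chr2:68861441-69114282, plus strand) had 7.665, 7.293, 4.576 and 3.49 CPM in mSC, 7.417, 8.761, 9.002 and 6.634 CPM in allSC and 12.7, 8.15, 9.03 and 9.75 CPM in nmSC. The mSC and nmSC ranges came close without overlap, and both overlapped that of allSC. Cers6 fell by 0.76 on the log2 scale (SE 0.23, adjusted p = 0.0141), a call that was lost without nmSC replicate 1 (adjusted p = 0.0549) or without mSC replicate 3 (adjusted p = 0.0527). Cers1, the enzyme of stearoyl chains, rose by 0.79 (SE 0.17, adjusted p = 0.000826) but not with library size only (0.23, adjusted p = 0.213). Its exons overlap those of Gdf1 on the same strand and of Upf1 on the opposite strand, so that counts of these genes could be split between them.

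The ORMDL proteins, which restrain serine palmitoyltransferase when ceramide is ample, did not pass the test. Ormdl1 had 49.65, 43.58, 43.59 and 53.97 CPM in mSC, 46.9, 44.14, 47.71 and 45.03 CPM in allSC and 36.76, 36.35, 37.85 and 50.58 CPM in nmSC. Ormdl3 had 19.94, 28.04, 29.55 and 34.4 CPM in mSC, 25.31, 23.21, 24.39 and 25.13 CPM in allSC and 23.9, 23.53, 20.08 and 20.55 CPM in nmSC, and Ormdl2 lay between 29.0 and 71.1 CPM in mSC and 35.3 and 46.6 CPM in nmSC. The mSC and nmSC ranges overlapped for all 3 genes, and the log2 fold changes of 0.24, 0.17 and 0.34 for Ormdl1, Ormdl2 and Ormdl3 (adjusted p = 0.166, 0.511 and 0.0814) turned to -0.33, -0.42 and -0.24 with library size only. With that scaling Ormdl1 was called as lower (adjusted p = 0.0313), and with the size factors of DESeq2 Ormdl3 was called as higher (adjusted p = 0.0414).

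The windows of 250 bases before the RefSeq start (GRCm38.p6) are shown for the ceramide synthases that moved furthest in either direction and for the first and last enzymes of galactolipid synthesis, as their genes share a pathway and differ in direction or size. They are written 5′ to 3′ on the strand of the gene, with capitals for matches, on either strand, to GCGTGGG (a core of the EGR binding motif, the family of Egr2), ACAAAG or ACAATG (Sox cores) and CACGTG (the E-box).
Cers2, chr3:95314940-95315189, plus strand: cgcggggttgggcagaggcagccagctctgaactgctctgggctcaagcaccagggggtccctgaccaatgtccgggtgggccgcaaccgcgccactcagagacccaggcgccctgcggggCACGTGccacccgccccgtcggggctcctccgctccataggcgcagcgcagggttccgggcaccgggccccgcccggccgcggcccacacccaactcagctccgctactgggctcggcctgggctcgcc
Cers4, chr8:4493155-4493404, plus strand: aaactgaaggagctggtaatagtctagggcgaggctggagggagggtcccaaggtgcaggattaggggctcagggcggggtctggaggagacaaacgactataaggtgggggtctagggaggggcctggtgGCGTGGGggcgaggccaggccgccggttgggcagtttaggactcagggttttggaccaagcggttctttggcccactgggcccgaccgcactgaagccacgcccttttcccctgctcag
Cers6, chr2:68861191-68861440, plus strand: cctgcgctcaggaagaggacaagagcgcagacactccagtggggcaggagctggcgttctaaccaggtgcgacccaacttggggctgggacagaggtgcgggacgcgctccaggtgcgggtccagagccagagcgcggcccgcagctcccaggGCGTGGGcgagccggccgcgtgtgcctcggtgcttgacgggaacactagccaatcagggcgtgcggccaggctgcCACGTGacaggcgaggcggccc
Ugt8a, chr3:125938653-125938902, minus strand: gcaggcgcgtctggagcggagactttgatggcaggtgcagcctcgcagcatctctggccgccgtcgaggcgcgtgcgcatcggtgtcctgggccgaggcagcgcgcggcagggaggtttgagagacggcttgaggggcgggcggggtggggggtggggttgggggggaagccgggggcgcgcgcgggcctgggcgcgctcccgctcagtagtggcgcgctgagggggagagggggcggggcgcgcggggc
Gal3st1, chr11:3983401-3983650, plus strand: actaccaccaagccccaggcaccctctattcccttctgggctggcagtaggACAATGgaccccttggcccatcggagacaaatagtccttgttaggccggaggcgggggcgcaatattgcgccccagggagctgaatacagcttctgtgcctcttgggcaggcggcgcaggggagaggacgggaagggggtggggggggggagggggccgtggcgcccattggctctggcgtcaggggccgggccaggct

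A window was found for 34 of the 38 genes, while B4galnt1, Smpd3, Fa2h and Asah1 are named only. GCGTGGG was in 2 of the 34 windows (5.88%, against 4.3% of all 32851 windows), those of Cers4 and Cers6, which moved in opposite directions. ACAAAG was in 4 windows (11.8%, against 16.5% of all) and ACAATG in 2 (5.88%, against 10.7%). The E-box was in 6 windows (17.6%, against 6.02%), those of Cers2, Cers6, Degs1, Smpd2, Arsa and Sphk1, which include genes that rose and genes that fell. None of the 34 windows held TCACNCCAC, a sterol element found in 1.05% of all windows, or TCACGTGA, the lysosomal CLEAR core found in 0.785%, which itself contains the E-box. The window of Ugt8a held none of these letters, and the RefSeq start used for it lies 22767 bases from the start of the principal GENCODE transcript, so other starts of this gene were not covered. These shares describe letters in short windows and no binding was measured.

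In the sphingomyelin branch 3 of 5 genes rose, 2 did not pass and 1, Smpd1, was called under all 4 scalings. Over all tested genes, 20.4% rose and 7.79% were called as higher under all 4 scalings. Smpd1, the lysosomal acid sphingomyelinase that is deficient in Niemann-Pick disease, was at 84.4 to 105 CPM in mSC and 44.1 to 61.5 CPM in nmSC, without overlap (log2 0.88, SE 0.13, adjusted p = 2.46e-05). Sgms1, the main sphingomyelin synthase of the Golgi, had 123.8, 129.6, 128.4 and 95.98 CPM in mSC, 102.4, 93.9, 102.3 and 98.7 CPM in allSC and 71.13, 89.7, 73.16 and 98.58 CPM in nmSC. The mSC library of subject 4 fell below the highest nmSC library, and the change (log2 0.52, SE 0.14, adjusted p = 0.00469) turned to -0.03 with library size only. With library size less its top 50 genes Sgms1 was not called either (0.165, adjusted p = 0.312). Sgms2, the synthase of the plasma membrane, had 6.24, 4.601, 4.033 and 3.864 CPM in mSC, 5.16, 4.28, 3.54 and 4.42 CPM in allSC and 4.70, 3.23, 4.25 and 3.03 CPM in nmSC, with overlap and no call (log2 0.32, SE 0.24, adjusted p = 0.289, and -0.24 with library size only). Smpd2, a neutral sphingomyelinase whose exons overlap those of Mical1, was called under TMM (log2 0.47, SE 0.13, adjusted p = 0.0065). It was called neither with library size only (-0.10) nor with library size less its top 50 genes (0.101, adjusted p = 0.432). Smpd3, another neutral sphingomyelinase, had 1.04 to 1.25 CPM in mSC and 1.18 to 2.30 CPM in nmSC (log2 -0.53, SE 0.33, adjusted p = 0.211). It was called as lower with library size only (-1.09, adjusted p = 0.0105) and with library size less its top 50 genes (-0.89, adjusted p = 0.0343).

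Of the 4 genes of the glucosylceramide and ganglioside branch, 2 rose and 2 did not pass the test, and none was called under all 4 scalings. The share of all tested genes that rose was 20.4%, and under all 4 scalings 7.79% were higher and 17.7% lower. Ugcg, the glucosyltransferase that competes with Ugt8a for ceramide, had 10.99, 15.19, 15.9 and 17.08 CPM in mSC, 10.25, 12.97, 15.39 and 12.56 CPM in allSC and 10.75, 9.51, 7.17 and 11.92 CPM in nmSC. The lowest mSC library overlapped the nmSC range. The log2 fold change of 0.58 (SE 0.19, adjusted p = 0.0217) was not called with library size only (0.01, adjusted p = 0.968) or less its top 50 genes (0.212, adjusted p = 0.349). It was also lost without nmSC replicate 2 (adjusted p = 0.0519), mSC replicate 3 (adjusted p = 0.0516) or nmSC replicate 3 (adjusted p = 0.0657). St3gal5, which makes GM3, the first ganglioside of the pathway, was at 79.3 to 103 CPM in mSC and 58.3 to 72.4 CPM in nmSC (log2 0.52, SE 0.13, adjusted p = 0.00281), which turned to -0.04 with library size only. With library size less its top 50 genes St3gal5 was not called either (0.159, adjusted p = 0.234).

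The next 2 ganglioside enzymes were near the limit of detection. B4galnt1, which extends the a and b series toward the complex gangliosides, had 0.41, 1.13, 0 and 1.00 CPM in mSC, 0.44, 0.87, 0.69 and 0.80 CPM in allSC and 0.29, 0.76, 0.75 and 0.86 CPM in nmSC. St8sia1, the GD3 synthase, had 1.63, 1.65, 0.85 and 0.25 CPM in mSC, 2.11, 1.41, 2.39 and 1.21 CPM in allSC and 2.21, 0.93, 1.49 and 1.45 CPM in nmSC. The ranges of the gates overlapped for both genes, and neither was called (adjusted p = 0.861 and 0.471). The 0 counts of B4galnt1 in mSC replicate 3 allow up to 0.193 CPM before TMM scaling (3 counts). 

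The breakdown and S1P branch held the largest fall as well as several rises, with 6 of 10 genes higher, 2 lower and 2 not past the test. Of all tested genes 20.4% were higher and 20.1% lower. Under all 4 scalings 3 genes of the branch were higher and 2 lower, against 7.79% and 17.7% of all tested genes. Asah1 (chr8:41340197-41374773, minus strand), the acid ceramidase of the lysosome, had 862.4, 805.4, 885.8 and 930.1 CPM in mSC, 541.9, 491, 526.8 and 540.8 CPM in allSC and 230.2, 253.2, 273 and 333.6 CPM in nmSC, 3 separate ranges with a change of 3.19-fold (log2 1.68, SE 0.12, adjusted p = 1.95e-09). Arsa (chr15:89472476-89477425, minus strand), the arylsulfatase that removes the sulfate of sulfatide, had 29.98, 36.98, 47.39 and 39.39 CPM in mSC, 25.31, 28.02, 24.31 and 28.14 CPM in allSC and 12.77, 15.8, 20.01 and 13.5 CPM in nmSC. Here too the 3 gates did not overlap (log2 1.31, SE 0.17, adjusted p = 3.26e-06). Psap, the precursor of the saposins that present lipids to these hydrolases, was at 660 to 787 CPM in mSC and 353 to 496 CPM in nmSC (log2 0.80, SE 0.12, adjusted p = 2.93e-05).

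Galc, the galactosylceramidase that is deficient in Krabbe disease, had 30.86, 45.84, 39.95 and 53.85 CPM in mSC, 30.69, 32.57, 34.55 and 46.94 CPM in allSC and 24.86, 21.57, 21.43 and 27.46 CPM in nmSC. It did not overlap between mSC and nmSC, and its rise of 0.83 on the log2 scale (SE 0.18, adjusted p = 0.00084) was not called with library size only (0.26, adjusted p = 0.16). Unlike Asah1, none of the other tested ceramidases was called as higher in mSC. Of these, only Acer2 was called as lower under TMM, with 3 to 10 counts per mSC library. Acer2, the Golgi ceramidase, had 0.54, 0.43, 0.78 and 0.37 CPM in mSC, 1.67, 1.41, 1.62 and 1.41 CPM in allSC and 2.69, 0.76, 2.46 and 0.72 CPM in nmSC. The mSC libraries lay below every allSC library and overlapped nmSC, where 2 libraries were high and 2 low, and the log2 fold change of -1.58 (SE 0.48, adjusted p = 0.0137) was lost without nmSC replicate 1 (adjusted p = 0.0593) or nmSC replicate 3 (adjusted p = 0.0535). Acer3 and Asah2, an alkaline and a neutral ceramidase, were not called under TMM (log2 -0.23 and -0.50, adjusted p = 0.283 and 0.189). Both were called as lower with library size only (log2 -0.81 and -1.04) and with library size less its top 50 genes (log2 -0.605 and -0.847). After subtraction of the median of all tested genes, Acer3 was at -0.083 to -0.069 and Asah2 at -0.341 to -0.316 over the scalings. A shared fall of the ceramidases other than Asah1 therefore depended on the scaling and was not shown.

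Sphk1 (ENSMUSG00000061878, chr11:116530925-116536674, plus strand), a sphingosine kinase that makes S1P, showed the largest fall. Its levels were 1.22, 0.43, 2.09 and 1.75 CPM in mSC, 6.69, 7.76, 7.54 and 8.44 CPM in allSC and 12.57, 10.36, 14.26 and 14.03 CPM in nmSC. The gates were far apart, and the level in mSC was 9.36-fold lower than in nmSC (log2 -3.23, SE 0.29, adjusted p = 2.48e-08). Each mSC library held 5 to 27 counts and each nmSC library 122 to 213, so the size of the fall rests on low counts in mSC. Exons of the annotated gene Gm29292 overlap those of Sphk1 and their reads cannot be told apart here. Sphk2, the second kinase, moved the other way, from 26.3 to 36.5 CPM in nmSC to 31.5 to 54.2 CPM in mSC (log2 0.58, SE 0.16, adjusted p = 0.00866). It was not called with library size only (0.01, adjusted p = 0.962) or less its top 50 genes (0.212, adjusted p = 0.254). Its exons overlap those of Dbp and Rpl18. Sgpl1, the lyase that degrades S1P for good, had 217 to 233 CPM in 3 mSC libraries, 102 CPM in mSC replicate 4 and 87.7 to 128 CPM in nmSC, and rose by 0.79 (SE 0.20, adjusted p = 0.0037). The value was 1.01 (adjusted p = 5.23e-07) without mSC replicate 4 and 0.25 (adjusted p = 0.297) with library size only. With library size less its top 50 genes the value was 0.443 (adjusted p = 0.075).

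Ratios of 2 genes within a library do not depend on the scaling between libraries, and 8 pairs were compared between mSC and nmSC. The test was an exact permutation of the libraries, two-sided, on the log2 ratio of counts. For 4 libraries against 4 the smallest p is 0.0286, and 4 pairs reached it. Adjusted over the 8 pairs these p-values became 0.0571, so that no pair passed the threshold. With 4 of the 8 pairs at the smallest p, no lower adjusted value was possible for any pair, however large its shift. The adjusted p is therefore no measure of the size of these differences. For each pair both genes are listed above with their level in every library.

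Counts of Ugt8a were 364 ± 132 (SD, n = 4) times those of Ugcg in mSC and 56.7 ± 9.8 times in nmSC, a log2 difference of 2.63 with all mSC libraries above all nmSC libraries (exact permutation p = 0.0286). The ratio of Galc to Ugt8a went down, from 0.0439 ± 0.00547 (SD, n = 4) in nmSC to 0.00891 ± 0.0042 in mSC (log2 difference -2.40, exact permutation p = 0.0286). Among the ceramide synthases, the ratio of Cers2 to Cers6 was 255 ± 101 in mSC and 39.7 ± 10.1 in nmSC (log2 difference 2.64), and that of Cers2 to Cers5 was 5.49 ± 0.296 and 2.77 ± 0.191 (log2 difference 0.99), each with an exact permutation p = 0.0286. In these 4 pairs the ranges of mSC and nmSC did not overlap, and the adjusted p was 0.0571.

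The other 4 pairs overlapped between the gates. Cers4 was 0.185 ± 0.00865 (SD, n = 4) of the counts of Cers2 in mSC and 0.186 ± 0.0175 in nmSC, a log2 difference of -0.002 (exact permutation p = 1.0). The log2 differences were 0.23 for Sgms1 to Sgms2 (exact permutation p = 0.429), -0.12 for B4galnt1 to St8sia1 (exact permutation p = 0.971) and 0.08 for Ormdl3 to Ormdl1 (exact permutation p = 0.771). The SDs of the log2 ratio of B4galnt1 to St8sia1, 2.63 in mSC and 1.08 in nmSC, show how little these low counts can resolve.

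**Figure D4:**
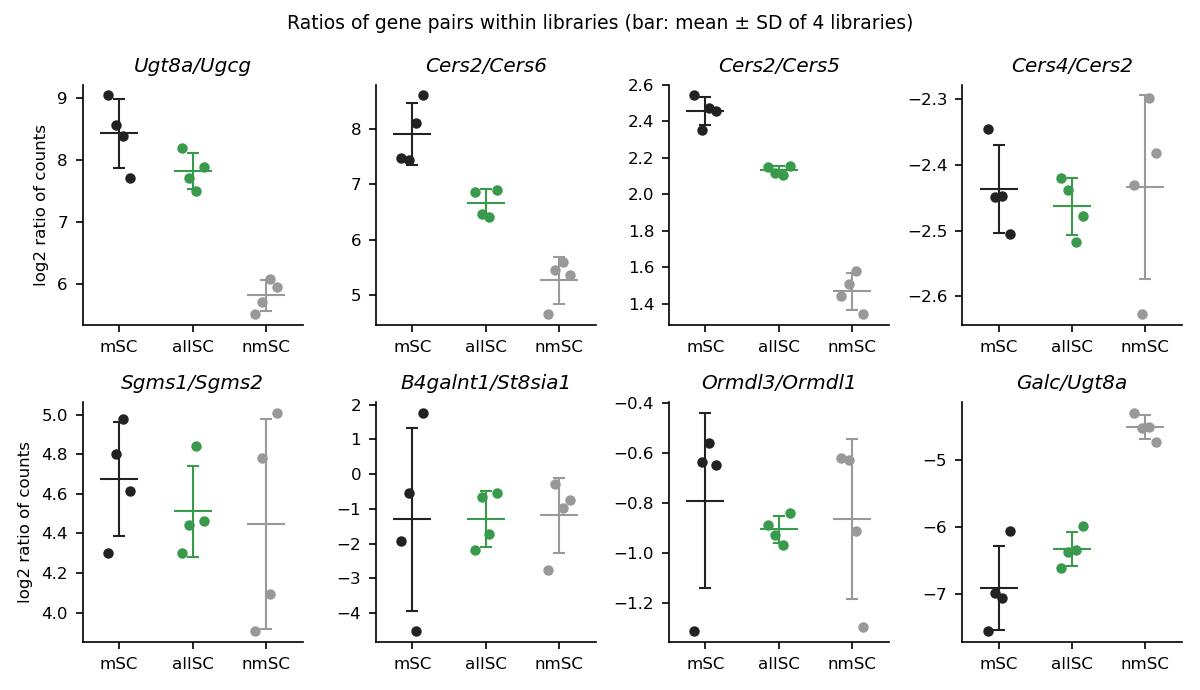
Log2 ratio of counts of 8 gene pairs (y axes, which do not start at 0) within each library of the mSC, allSC and nmSC gates (x axes), with 1 point per library in order of subject number and bars for the mean ± SD (n = 4). The mSC and nmSC points are separate for Ugt8a/Ugcg, Cers2/Cers6, Cers2/Cers5 and Galc/Ugt8a, and overlap for the other 4 pairs.

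Levels of different genes were compared as CPM per kilobase of the principal transcript. On this scale Ugt8a was highest in mSC at 1369, followed by Cers2 at 599, Degs1 at 315, Asah1 at 314, Fa2h at 289 and Psap at 266 CPM per kilobase. In nmSC the order began with Cers2 at 172, Psap at 153, Ugt8a at 147 and Sptssa at 112 CPM per kilobase, of which the first 3 lie close to each other. Ugt8a and Cers2 stayed first and second in mSC with the union of exons or the mean transcript length in place of the principal transcript, whereas the order below them and the first 3 ranks in nmSC changed. The counts of the 38 genes together came to 11265 to 12781 CPM in mSC, 7300.7 to 7987.8 CPM in allSC and 3173.8 to 3904.9 CPM in nmSC, and Ugt8a took 32.0% to 46.3% of them in mSC and 13.5% to 18.8% in nmSC.

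Against allSC, whose cells include those of both other gates, fewer genes were called. In mSC 13 of 37 genes were higher and 2 lower than in allSC (8.76% and 8.8% of all tested genes, together 17.6%). The 13 were Sptlc2, Kdsr, Cers2, Cers4, Cers5, Degs1, Fa2h, Ugt8a, Gal3st1, Smpd1, Arsa, Psap and Asah1, with log2 fold changes of 0.39 (Cers5) to 0.84 (Ugt8a), and the 2 were Sphk1 (-2.47, adjusted p = 4.2e-06) and Acer2 (-1.47, adjusted p = 0.0408). Under all 4 scalings 7 of the 13 were called, while Arsa, Cers5, Fa2h, Kdsr, Psap and Smpd1 were not, and both lower genes were. Without allSC replicate 2 the number of higher genes was 8, and the lower call of Acer2 was lost in 7 of the 8 fits that left out 1 library.

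In nmSC 13 of 37 genes were lower than in allSC (7.55% of all tested genes, with 10.4% called in either direction), from -0.42 for Cers5 to -2.38 for Ugt8a (log2), and 8 of the 13 were called under all 4 scalings. No gene was called as higher by edgeR with TMM and all 12 libraries (2.82% of all tested genes), 1 had an unadjusted p under 0.05, and 1 was called by DESeq2's Wald test and by edgeR with either library size scaling, a filter at a mean of 1 CPM or only the 2 gates. The gene with the unadjusted p under 0.05 is Sphk1, with 0.75 (SE 0.24, adjusted p = 0.05), and all 4 nmSC libraries exceeded all allSC libraries. The comparisons with allSC share those 4 libraries and are not independent of each other. The allSC mean lay between the means of mSC and nmSC for 35 of 37 genes (94.6%, against 69.5% of all tested genes). For the 10 genes with a difference of at least 1 log2 unit and no overlap between mSC and nmSC, it lay from 32.3% of the way from nmSC to mSC (Gal3st1) to 50.6% (Fa2h).

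Genes that act beside these enzymes were followed as lists of 65 genes, of which 58 were tested and 29 were higher in mSC than in nmSC, 6 lower and 23 not past the test (20 and 6 called under all 4 scalings). Of all tested genes 20.4% were higher and 20.1% lower, and 7.79% and 17.7% under all 4 scalings. Acyl chain enzymes stood out by count, with 7 of 8 tested genes higher, all 7 under every scaling. They include the elongases Elovl7 (log2 2.79, SE 0.13, adjusted p = 5.73e-12) and Elovl6 (2.47, SE 0.12, adjusted p = 8.71e-12), which lengthen long-chain fatty acids, and Elovl1 (1.97, SE 0.14, adjusted p = 7.1e-10), which makes the very long chains that Cers2 uses. Elovl1 was at 1852 ± 364 (SD, n = 4) CPM in mSC and 474 ± 38.1 CPM in nmSC. Tecr and Hacd3, reductase and dehydratase of the elongation cycle, rose by 1.51 and 1.22, and Aldh3a2, an aldehyde dehydrogenase that also acts on a product of S1P breakdown, by 1.25 (log2).

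In the other lists, 7 of 10 tested transport genes rose, among them Abca2 (log2 2.04, SE 0.18, adjusted p = 3.3e-08), a lipid transporter of late endosomes. Of ceramide and sphingomyelin side enzymes 5 of 11 rose and 2 fell, with Samd8, which makes ceramide phosphoethanolamine, at 1.70 and the S1P phosphatase Sgpp1 at 1.93, while Cerkl, a ceramide kinase-like gene, fell by 2.37 (log2). Of glycolipid synthesis genes 5 of 13 rose and 2 fell, and St8sia5, a sialyltransferase of complex gangliosides, went from 3.63 ± 1.45 (SD, n = 4) CPM in nmSC to 65.3 ± 7.34 CPM in mSC (log2 4.14, SE 0.22, adjusted p = 2.09e-11). Lysosomal hydrolases and their helpers had 5 of 13 genes higher and 8 not past the test.

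Of the S1P receptors 3 of 5 were tested and 2 fell, and they moved in the direction of Sphk1. S1pr3 was at 27.9 ± 10.7 (SD, n = 4) CPM in mSC, 350 ± 9.72 CPM in allSC and 574 ± 118 CPM in nmSC (log2 -4.35, SE 0.25, adjusted p = 5.39e-11). S1pr1 was at 0.381 ± 0.392 CPM in mSC and 1.15 ± 0.489 CPM in nmSC (log2 -1.54, SE 0.58, adjusted p = 0.0398), and S1pr2 did not pass the test (0.22, SE 0.16, adjusted p = 0.298).

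Markers of other cells of the nerve were mostly low and moved both ways. Of the fibroblast list 1 of 5 tested genes moved, Col1a1, from 3420 ± 489 (SD, n = 4) CPM in nmSC to 786 ± 281 CPM in mSC, while Pdgfra was at 2.35 and 2.33 CPM and Dpt and Pi16 were under 1 CPM. The summed fibroblast list was 422.8 to 1031 CPM in mSC and 2921 to 4101 CPM in nmSC. Of the endothelial list 2 of 5 rose and 2 fell, with sums of 50.1 to 72.5 CPM in mSC and 15.8 to 23.6 CPM in nmSC, and Cldn5 and Cdh5 at 1.03 CPM or less. Kdr was at 20.3 CPM in mSC and 5.89 CPM in nmSC (log2 1.80, adjusted p = 9.58e-07) and Egfl7 at 35.6 and 9.25 CPM (log2 1.94, adjusted p = 8.57e-07), while Pecam1 was at 1.25 and 2.45 CPM (log2 -0.95, adjusted p = 0.0428) and Tek at 0.919 and 1.97 CPM (log2 -1.12, adjusted p = 0.0178). The immune list had 1 of 3 lower and sums of 14.2 to 20.9 and 18.6 to 27.4 CPM, with Aif1 at 0 in all 4 mSC libraries. Mural sums were 26.1 to 39.9 and 11.6 to 12.6 CPM (1 of 5 higher, 1 lower), perineurial sums 183.6 to 306.6 and 254.8 to 389.7 CPM (2 of 4 higher, though 0 under all 4 scalings, and 2 lower) and neuronal sums 15.3 to 25.6 and 14.5 to 17.8 CPM (1 of 5 lower). As these are bulk samples, a smaller share of cells of a stage and less RNA per cell cannot be told apart, and the part of other cells, or of the proliferation genes that moved with the nmSC gate, in the results above was not tested.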

How the data were processed

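RNA of sorted P5 SCs was made into full-length cDNA by Smart-Seq2, which does not mark strand. According to the methods and the submitters' processing notes, the authors trimmed adapters and low-quality bases, used STAR 2.6.1c for alignment and featureCounts for counting, and deposited raw counts without normalization. The notes name GRCm38.p5, whereas the methods name a human genome build, and the identifiers are those of mouse. Settings for strand, multi-mapping and overlapping genes are not given in the sources used here. Symbols, positions and lengths were taken from GENCODE M21 (GRCm38), which matched 25664 of 25700 identifiers, and exons of 16 of the 38 genes overlap another annotated gene. Besides the genes marked above, these are Arsa, B4galnt1, Galc, Ormdl1, Ormdl2, Sgms1, Smpd3, Sptssa and St8sia1.

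Counts were filtered with filterByExpr by gate, normalized by TMM and compared with edgeR 4.0.16 in R 4.3.3 (quasi-likelihood test, 1 model of 12 libraries, Benjamini-Hochberg adjustment, threshold 0.05). Ratios of counts used a pseudocount of 0.5. Alternatives were other scalings, other filters, the Wald test of DESeq2 1.42.0, only the 2 gates compared, the subject number as a block and each library left out. The lengths other than that of the principal transcript were added after seeing the data. The labels give 1 subject number to the libraries of the 3 gates that share it, and the methods derive each sample from 1 mouse. Deviations of same-numbered libraries from their gate means correlated on average at -0.0356 between mSC and nmSC, 0.114 between mSC and allSC and 0.0191 between nmSC and allSC. Among libraries of the other gates, 6 of the 12 libraries correlated best with one of their own number. The permutation tests of ratios treated libraries of the same number as independent. According to the paper, samples within each gate cluster in pairs of the same sex. Labels do not give the sex of a library, which was not used.

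Replicates of a gate differed beyond sampling noise (chi-square per degree of freedom of 4.03 to 95.7). In 5 simulated draws of about 18227 genes for mSC against nmSC, 52% of genes changed 2-fold and 84% of genes changed 4-fold were recovered, with 6.32% false calls. Only a small set of genes was changed in each draw, up or down at random, on a mean profile shared by the gates. The draws therefore do not cover the effect of the scaling on the calls. Floors cover counting error only, since PCR copies without molecular identifiers are not independent molecules.

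The genes and all lists were chosen with earlier results of these data known. Values in every library are given for genes called with at least 1 log2 unit between mSC and nmSC and for those of the ratio pairs. Promoter windows are from RefSeq (GRCm38.p6).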

Additional observations from a re-analysis of the deposited data

Results flagged for a closer look

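In each gate the highest and lowest of the 4 libraries were compared with the others by Dixon's ratio for each tested gene and Sptssb (114 comparisons), where chance alone flags about 1 in 20. A single library stood apart in 6 of them. For Ugt8a, the nmSC library of subject 4 had 733.2 CPM and the others 487 to 499.9 CPM. For Ormdl1, the same nmSC library had 50.58 CPM and the others 36.35 to 37.85 CPM. The mSC library of subject 4 was lowest for Sgpl1, at 101.6 CPM against 217 to 233.1 CPM, and highest for Sptlc3, at 1.246 CPM against 0.388 to 0.475 CPM. In allSC, the library of subject 1 was highest for Cers5, at 197.2 CPM against 179.7 to 180.4 CPM, and lowest for Gal3st1, at 161.7 CPM against 182.9 to 186.3 CPM.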

How the results depend on the processing

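The scaling between libraries moved most. With library size only, 12 genes were higher and 8 lower in mSC than in nmSC (16 and 6 with library size less its top 50 genes). Against allSC, 7 were higher and 4 lower in mSC (8 and 2 without the top 50 genes), and 1 higher and 8 lower in nmSC. Of all 18597 tested genes, library size only called 11840 between mSC and nmSC, 4378 between mSC and allSC and 2938 between nmSC and allSC. A fit of only the 2 gates compared gave 2899 between nmSC and allSC. The 1 gene higher in nmSC than in allSC was also called without the top 50 genes, with the filter at a mean of 1 CPM, by DESeq2's Wald test and in the fit of only the 2 gates. The subject number as a replicate block gave 23 genes higher and 3 lower between mSC and nmSC, as without it, and changed no other call among the 38 genes.

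Between mSC and nmSC, log2 fold changes turned negative with library size only for Ormdl1 (-0.326), Ormdl2 (-0.415), Ormdl3 (-0.238), Sgms1 (-0.032), Sgms2 (-0.236), Smpd2 (-0.102) and St3gal5 (-0.043). Without the top 50 genes they did so for Ormdl1 (-0.124), Ormdl2 (-0.206), Ormdl3 (-0.034) and Sgms2 (-0.04).

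With 1 library left out at a time, 22 to 24 genes were higher and 1 to 3 lower between mSC and nmSC (1 without nmSC replicate 1), 8 to 16 higher and 1 to 2 lower between mSC and allSC, and 0 higher and 9 to 14 lower between nmSC and allSC. All tested genes called ranged from 6174 to 7991, from 2205 to 4204 and from 1345 to 1700 in these comparisons. Log2 fold changes ranged from -0.64 to 0.298 for B4galnt1 and from -0.109 to 0.359 for Ormdl2. The log2 ratio differences ranged from -0.067 to 0.043 for Cers4/Cers2, from -1.142 to 0.955 for B4galnt1/St8sia1 (0.181 with a pseudocount of 5) and from -0.07 to 0.25 for Ormdl3/Ormdl1. At 3 counts, the floor of 0.177 to 0.367 CPM before TMM scaling limits B4galnt1, whose libraries ranged from 0 to 1.13 CPM.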
